A study of Homo sapiens with 21 samples.

Results

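Cadmium-treated MDA-MB-453 cells were compared with untreated cells in 6 of the 21 RNA-seq libraries of the series, 3 that had received 10 μM cadmium for 24 h and 3 that had received no treatment. Of the 58735 annotated genes, the 14615 with a mean of at least 0.5 FPKM over these 6 libraries were tested, FPKM being fragments scaled by gene length and by the size of the library. MDA-MB-453 is an established human breast cancer cell line that lacks estrogen receptor, and the study asked whether calcium and cadmium act in it through the nuclear receptor ESRRB. All cells were wild type. The cadmium group was grown in IMEM with 1% charcoal-stripped serum, and since the medium of the untreated group is not given separately, an effect of the medium and one of cadmium cannot be told apart. Nothing in the labels says that the 3 libraries of a group came from separate cultures, so the p-values measure the spread between these libraries only. RNA was captured through its poly-A tail, and the sources used here differ on whether strand was kept.

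Cadmium is a toxic divalent metal that binds the thiol groups of proteins. Cells answer it through metallothioneins, small cysteine-rich proteins that hold zinc, copper or cadmium, and whose genes are switched on by the zinc-sensing factor MTF1 at metal response elements. Misfolded protein releases HSF1, which binds heat shock elements in chaperone genes, and oxidation of KEAP1 releases NRF2, which binds antioxidant response elements in genes of glutathione, thioredoxin and heme metabolism.

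Each of the 6 libraries held between 15246217 and 28424805 fragments on genes. The defining genes of the line were present in every library, with ERBB2 at 99.4 to 162 FPKM. ESR1 did not exceed 0.123 FPKM and PGR 0.156 FPKM, and the 6 basal or mesenchymal markers summed to 0.133 to 0.322 FPKM in the controls and 0.936 to 2.46 FPKM with cadmium. Of 10 markers of immune, endothelial, stromal and liver cells, only COL1A1 passed the filter, at 9.97 to 14.5 FPKM, and the 10 together summed to 10.6 to 12.2 FPKM in the controls and 10.3 to 14.8 FPKM with cadmium. ESRRB itself stood at 0.0261 to 0.257 FPKM and was not tested. In bulk RNA, fewer cells of a type and less RNA per cell cannot be told apart.

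Cadmium was followed by a rise of the metallothionein genes, the zinc exporter gene SLC30A1, the chaperone gene HSPA6 and a group of histone genes, and by a fall of ATF5, FASN and CCND3 among others. Of the 14615 genes, 312 were called at an adjusted p under 0.05 (limma on log2(FPKM + 0.1), Benjamini-Hochberg adjustment), which is 2.13%. Higher with cadmium were 185 genes (1.27%) and lower were 127 (0.869%). In all 312 the cadmium and control libraries did not overlap, while over all genes 18.9% were higher and 16.7% lower without overlap. An unadjusted p under 0.05 was reached by 3957 genes (27.1%), and most calls lay close to the threshold: 10 genes (0.0684%) had an adjusted p under 0.03 and 92 (0.629%) under 0.04. The count was 2164 without cadmium library 1, 3 without library 2 and 138 without library 3, and 4 to 8 without any 1 control library. MT1E, MT1F and MT1X were called in all 16 alternatives tried.

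**Figure D1:**
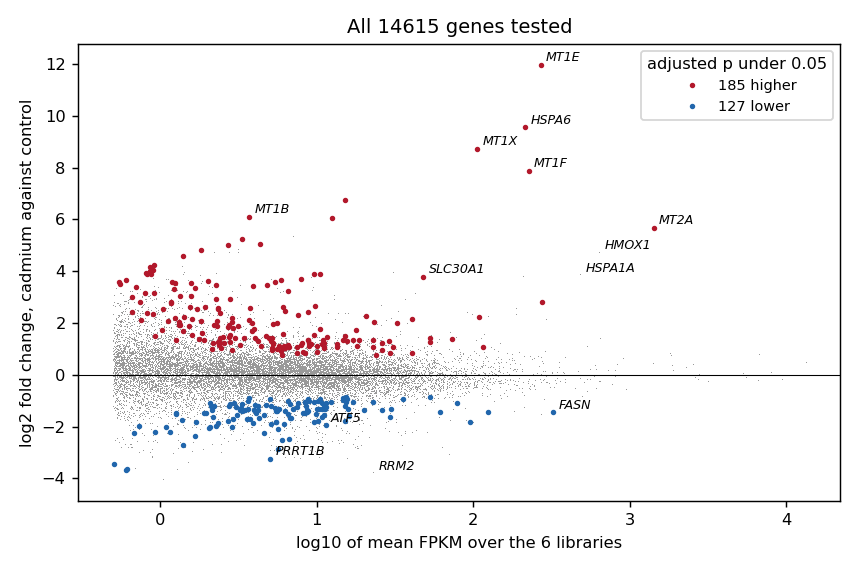
Log2 fold change with cadmium against control (y axis) over the log10 of the mean FPKM of the 6 libraries (x axis) for the 14615 genes tested, with 185 genes called higher in red, 127 called lower in blue and the other genes in grey. MT1E, HSPA6, MT1X and MT1F lie highest, and RRM2, HSPA1A and HMOX1 are grey although their differences are large.

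The 3 cadmium libraries did not respond to the same extent. The median size of a gene's log2 difference from the control mean was 0.297 in cadmium library 1, 0.447 in library 2 and 0.617 in library 3, while for each control against the other 2 it lay between 0.152 and 0.278. In library 1, 1006 genes lay more than 1 log2 unit above the control mean and 662 as far below it. The same counts were 1654 and 1173 in library 2, and 2570 and 1847 in library 3. The median difference over all genes stayed near 0 in each, at 0.02, 0.05 and 0.10. Since the test weighs a difference against its spread, it gives smaller p-values to genes that differ by a like amount in all 3 libraries. Among the 172 called rises with a mean difference over 1, the median share of that mean was 88.6% in library 1, 103% in library 2 and 108% in library 3, and this evenness is what the call selects for.

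The metallothionein genes, which encode the metal-binding proteins themselves, gave the largest rises as a list, of similar size in the 3 cadmium libraries. All 6 that passed the filter, of 12 listed, were called higher, beside 1.27% of all genes. The filter takes part in this count, since MT1B, MT4, MT1E and MT1X had control means of 0, 0, 0.0392 and 0.449 FPKM and passed only through the cadmium libraries. Their median log2 fold change was 7.0, or 6.78 with genes at 0 in the controls set to their lower bound, beside 0.06 over all genes tested. The median difference was 6.41 in cadmium library 1, 7.32 in library 2 and 7.27 in library 3.

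MT2A was the most abundant of them, with 62.0, 24.1 and 92.7 FPKM in the controls and 2001.5, 2288 and 4088 FPKM with cadmium (log2 fold change 5.68 ± 0.52 (SE, n = 3), adjusted p = 0.0205 by limma). It was the only member with a sizeable level in untreated cells. MT1E went from 0.118, 0 and 0 FPKM to 414, 466 and 739.7 FPKM (11.98 ± 0.37, adjusted p = 0.000116). In the controls it was covered by 4 fragments in all, so that its fitted change depends on the pseudocount. MT1F stood at 1.52, 1.2 and 3.01 FPKM in the controls and at 352, 437 and 565 FPKM with cadmium (7.88 ± 0.35, adjusted p = 0.000672), and MT1X at 0.401, 0.160 and 0.785 FPKM against 172, 175 and 289 FPKM (8.72 ± 0.45, adjusted p = 0.00134). For all of these the lowest cadmium library lay far above the highest control.

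MT1B and MT4, the latter known from stratified epithelium, were not seen in any control library. MT1B reached 3.76, 10.9 and 7.69 FPKM with cadmium, at least 20.4-fold higher than the level that 3 fragments per control library would give (adjusted p = 0.00782). MT4 reached 0.748, 5.69 and 4.55 FPKM, at least 7.76-fold higher (adjusted p = 0.0441). Their absolute levels stayed a small fraction of those of MT2A. With 1 library left out, MT1E, MT1F and MT1X were called in all 6 fits, but MT1B in 4, MT2A in 3 and MT4 in 1, and MT4 in 5 of the 16 alternatives.

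The genes lie in a cluster at chr16:56565049-56684196 (GRCh38.p14), and the rise did not extend to every gene in it. MT1A and MT1H had 0 fragments in all 6 libraries, MT1M had at most 2, MT1G at most 5, and MT3 and MT1L at most 1. Outside the cluster, OGFOD1 stood at 7.64, 7.79 and 7.69 FPKM in the controls and 6.70, 6.63 and 6.98 FPKM with cadmium, BBS2 between 4.28 and 5.68 FPKM in all 6, and the nuclear pore gene NUP93 at 7.27, 7.35 and 6.68 FPKM against 5.63, 4.39 and 1.54 FPKM. The metallothionein genes are close copies, and how the authors' counting divided reads between them is not known here.

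Zinc transporters and MTF1 formed a second metal group, of which 1 of 18 tested members was called higher and none lower, beside 1.27% and 0.869% of all genes. SLC30A1, which carries zinc out of the cell and is a known MTF1 target, stood at 6.16, 3.23 and 7.40 FPKM in the controls and at 30.7, 84.0 and 157 FPKM with cadmium (log2 fold change 3.78 ± 0.60 (SE, n = 3), adjusted p = 0.0441 by limma). The groups were apart, but the cadmium libraries themselves spanned a wide range, and the call held in 8 of 16 alternatives. MTF1 had 4.45, 4.18 and 5.15 FPKM against 5.26, 7.60 and 9.19 FPKM and was not called (adjusted p = 0.146). The zinc importer gene SLC39A10, at 2.81, 8.79 and 1.38 FPKM in the controls, overlapped its cadmium values of 7.75, 11.7 and 13.1 FPKM. The median log2 fold change of the group was 0.14.

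**Figure D2:**
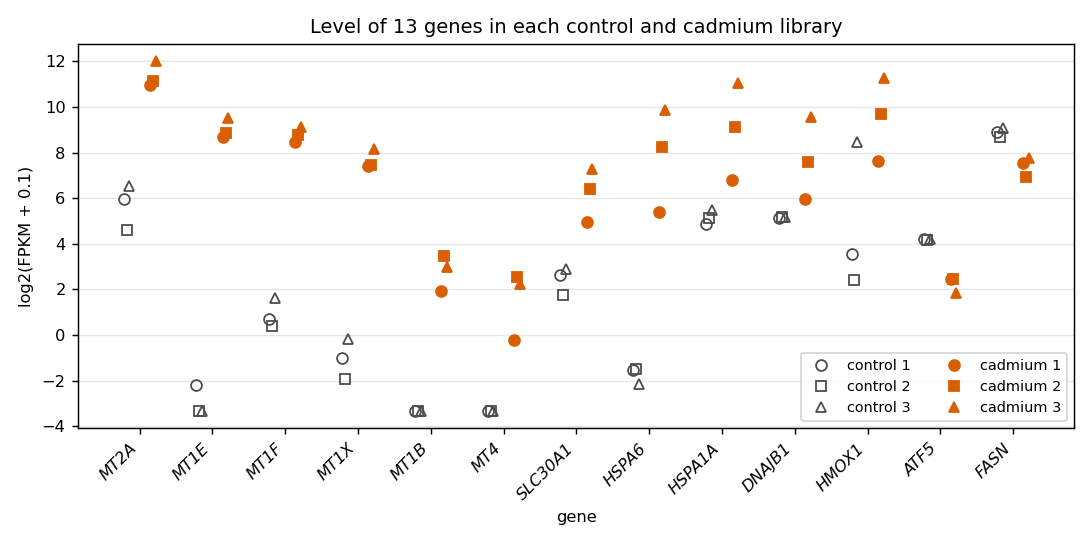
Level of 13 genes, as log2(FPKM + 0.1), in each control library (open grey) and each cadmium library (filled orange), with a symbol shape for each replicate number. The cadmium symbols sit close together for MT2A, MT1E, MT1F and MT1X, lie apart for HSPA6, HSPA1A and HMOX1, and control library 3 stands out for HMOX1 at 349 FPKM.

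The sequence before the start of these genes was read for the metal response element, searched as TGCACNC or TGCGCNC on both strands in the 250 bases before the RefSeq start. RefSeq promoters were matched for 5 of the 12 listed metallothionein genes (MT2A, MT1X, MT1B, MT4 and MT1H) and not for MT1E or MT1F. All 5 held at least 2 matches, with 7 in MT2A, 4 in MT1X, 3 in MT1B, 3 in MT4 and 8 in MT1H, whereas 24.7% of the 27305 promoters in the table held at least 1 and 6.51% at least 2. SLC30A1 held 1. The last 150 bases before the start follow, 5′ to 3′ on the gene's strand, from RefSeq on GRCh38.p14, with the matches in capitals. They are shown because 5 belong to genes that were called and the sixth, with the most matches, to a gene without a fragment.
MT2A (called higher, chr16:56608434-56608583, plus strand): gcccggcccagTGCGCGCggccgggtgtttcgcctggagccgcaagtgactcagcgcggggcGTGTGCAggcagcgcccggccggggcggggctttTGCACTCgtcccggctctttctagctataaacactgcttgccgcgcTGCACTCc
MT1X (called higher, chr16:56682320-56682469, plus strand): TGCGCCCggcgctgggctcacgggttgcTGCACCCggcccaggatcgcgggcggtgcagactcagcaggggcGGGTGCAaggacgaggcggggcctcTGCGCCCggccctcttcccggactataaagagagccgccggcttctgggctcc
MT1B (called higher, chr16:56651736-56651885, plus strand): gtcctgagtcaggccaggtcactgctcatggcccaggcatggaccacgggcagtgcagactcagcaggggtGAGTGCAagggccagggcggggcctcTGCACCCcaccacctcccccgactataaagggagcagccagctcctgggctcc
MT4 (called higher, chr16:56564923-56565072, plus strand): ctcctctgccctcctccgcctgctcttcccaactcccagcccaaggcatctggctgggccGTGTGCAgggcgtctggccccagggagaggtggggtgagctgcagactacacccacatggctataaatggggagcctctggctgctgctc
MT1H (listed at 0 fragments in all 6 libraries, chr16:56669664-56669813, plus strand): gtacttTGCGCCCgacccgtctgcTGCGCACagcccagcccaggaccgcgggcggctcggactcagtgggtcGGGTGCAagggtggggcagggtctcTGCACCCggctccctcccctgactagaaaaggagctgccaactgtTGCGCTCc
SLC30A1 (called higher, chr1:211579162-211579311, minus strand): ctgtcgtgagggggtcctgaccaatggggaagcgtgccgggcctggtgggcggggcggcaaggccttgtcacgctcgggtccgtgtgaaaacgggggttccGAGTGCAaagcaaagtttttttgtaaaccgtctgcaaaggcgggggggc
A match here describes letters and not a bound site. Among the called genes at large, 33.0% of the 97 matched promoters of genes called higher and 36.8% of the 95 of genes called lower held at least 1, beside 33.8% of the 9183 matched promoters of all genes tested. For MT2A, MT1X and MT4 the gene model of the deposited table starts within or before the stretch shown, and for SLC30A1 after it.

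The chaperone genes of the heat shock response were graded across the cadmium libraries. Of 29 tested members, 1 was called higher and none lower, beside 1.27% and 0.869% of all genes, and 8 were higher without overlap, beside 18.9%. The called member and 1 other of the 8 had a control mean under 0.5 FPKM and passed the filter only through cadmium. Their median log2 fold change was 0.87, but the median difference was 0.20 in library 1, 0.48 in library 2 and 2.06 in library 3, and without cadmium library 3 the median was 0.23. Among the 13 members whose mean difference exceeded 1, the largest difference was in library 3 in all 13. The summed level of the whole list was 2000.2 to 2272 FPKM in the controls and 2192, 3878 and 12721 FPKM in the cadmium libraries.

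HSPA6, an inducible HSP70 gene that is nearly silent in unstressed cells, was the member called. It stood at 0.248, 0.260 and 0.128 FPKM in the controls and at 42.3, 300.3 and 947 FPKM with cadmium (log2 fold change 9.55 ± 1.02 (SE, n = 3), adjusted p = 0.0328 by limma). Even the lowest cadmium library was far above every control. The call held in 9 of 16 alternatives and in 2 of the 6 fits that each left out a library.

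The other inducible HSP70 genes followed the same order of libraries. HSPA1A had 29.2, 34.4 and 44.1 FPKM in the controls and 111, 559 and 2130.5 FPKM with cadmium (3.84 ± 0.95, adjusted p = 0.0791 by limma), and its near-identical copy HSPA1B had 13.5, 18.2 and 17.5 FPKM against 49.6, 249.9 and 911 FPKM (adjusted p = 0.0791). Neither overlapped between groups and neither was called. DNAJB1, an HSP40 cochaperone, had 35.0, 36.4 and 36.5 FPKM against 62.4, 191 and 762 FPKM (adjusted p = 0.113), and HSPH1, an HSP110 chaperone, 18, 24.5 and 16.9 FPKM against 25.7, 89.4 and 415 FPKM (adjusted p = 0.158). BAG3, a cochaperone of selective autophagy, overlapped, with 33.4 FPKM in control library 3 and 33.0 FPKM in cadmium library 1.

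HSPA8 and HSP90AB1, which are constitutive chaperone genes, showed another pattern. HSPA8 stood at 295, 359.8 and 310.5 FPKM in the controls and 249, 277 and 559 FPKM with cadmium, and HSP90AB1 at 468, 525 and 468 FPKM against 365, 307 and 743 FPKM. Both lay below the control range in cadmium libraries 1 and 2 and above it in library 3. HSF1, the factor that drives the response, had 33.4, 30.6 and 41.8 FPKM against 31.8, 39.4 and 43.6 FPKM and did not differ beyond the spread (adjusted p = 0.704).

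Heat shock elements, searched as GAANNTTC or TTCNNGAA on both strands, were found in 38.5% of the 26 matched promoters of this list, beside 11.7% of all promoters. HSPA6 held 3 matches in 250 bases, but HSPA8, which was not called, held 4, and DNAJB1, BAG3 and HSPH1 held 0. Its last 150 bases before the start are shown because it was the chaperone gene called, with overlapping matches merged in capitals.
HSPA6 (called higher, chr1:161524390-161524539, plus strand): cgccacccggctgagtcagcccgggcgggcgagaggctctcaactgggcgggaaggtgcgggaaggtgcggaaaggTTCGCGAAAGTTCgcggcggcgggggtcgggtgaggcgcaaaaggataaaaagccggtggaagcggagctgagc

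NRF2 target genes gave no call among 25 tested members (limma), although 10 higher and 1 lower had an unadjusted p under 0.05, beside 2126 and 1831 of the 14615 genes. Limma-voom called 1, beside 557 of the 14615. The median log2 fold change of the list was 0.66, and 7 were higher and 2 lower without overlap, beside 18.9% and 16.7% of all genes. Among the 10, and among the 7, 1 had a control mean under 0.5 FPKM and passed the filter only through cadmium. Control library 3 stood apart from the other controls in this list: the median difference of a control library from the other 2 ranged from -0.63 to 1.01, which covers the medians of 0.54, 0.35 and 0.85 in the cadmium libraries. Without control library 3 the median was 0.92.

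HMOX1, which encodes the heme-degrading oxygenase, had 11.6, 5.20 and 349 FPKM in the controls and 196, 816 and 2453 FPKM with cadmium, so that control library 3 exceeded cadmium library 1 (log2 fold change 4.72 ± 1.63 (SE, n = 3), adjusted p = 0.132 by limma). The fold change ranged from 3.52 to 6.54 over the fits that left out a library, and none of these called it. NQO1, a quinone reductase, overlapped in the same way, at 238, 194 and 509 FPKM against 462, 364 and 557 FPKM. GCLM, the regulatory subunit of glutathione synthesis, had 6.72, 7.07 and 20.1 FPKM against 23.4, 34.3 and 63.8 FPKM without overlap (adjusted p = 0.0912). The same held for TXNRD1, thioredoxin reductase, at 30.2, 33.6 and 64.5 FPKM against 71.2, 105 and 163 FPKM (adjusted p = 0.0936), and for OSGIN1 at 7.15, 6.77 and 21.5 FPKM against 27.4, 52.8 and 63.3 FPKM (adjusted p = 0.0739). In each of these genes the highest control was library 3.

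SRXN1, sulfiredoxin, came nearest to a call, with 4.01, 5.11 and 5.43 FPKM against 8.19, 9.31 and 8.52 FPKM (0.84 ± 0.17, adjusted p = 0.0543). SLC7A11, the cystine importer, had 3.54, 2.26 and 8.82 FPKM against 8.49, 24.2 and 47.7 FPKM and overlapped. The regulators lay on the other side of 0. KEAP1 had 22.9, 22.3 and 37.3 FPKM against 21.1, 15.3 and 9.97 FPKM (adjusted p = 0.154), and NFE2L2, the gene of NRF2, 13.8, 15.2 and 15 FPKM against 9.67, 12.9 and 12.8 FPKM (adjusted p = 0.247).

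Genes of the integrated stress response, in which ATF4 drives amino acid supply and CHOP, divided. Of 26 tested, 1 was called lower and none higher, beside 0.869% and 1.27% of all genes, and the median difference was -0.16, 0.31 and 1.11 in cadmium libraries 1, 2 and 3. The gene called was ATF5, a transcription factor of this pathway, which fell from 18.5, 17.8 and 18.2 FPKM to 5.40, 5.31 and 3.46 FPKM (log2 fold change -1.95 ± 0.20 (SE, n = 3), adjusted p = 0.0328 by limma). It was about as low in library 1 as in library 2, and the call held in 10 of 16 alternatives. ATF5 overlaps NUP62 on the other strand, which had 13.9, 19.3 and 15.1 FPKM in the controls and 15.8, 13.6 and 11.4 FPKM with cadmium.

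Stress genes that were graded in this list were not called. PPP1R15A, which directs a phosphatase to eIF2α, had 4.56, 5.22 and 9.31 FPKM in the controls and 15.6, 44.1 and 141 FPKM with cadmium (adjusted p = 0.0837 by limma). ATF3 had 1.78, 1.30 and 2.67 FPKM against 3.03, 18.2 and 50.1 FPKM (adjusted p = 0.116), and DDIT3, the gene of CHOP, 10.2, 6.34 and 17.9 FPKM against 13.5, 37 and 141 FPKM, with overlap. ATF4 mRNA overlapped, at 158, 129.7 and 213 FPKM against 129, 157 and 293 FPKM. DDIT4, an mTORC1 inhibitor, went the other way, with 109, 113 and 97.9 FPKM against 71.9, 56.2 and 48.3 FPKM (adjusted p = 0.0575).

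The unfolded protein response of the endoplasmic reticulum gave no call among 24 members (limma), and limma-voom called 1, beside 557 of the 14615 genes. An unadjusted p under 0.05 was reached by 4 higher and 1 lower, beside 2126 and 1831 of the 14615. The median log2 fold change of the list was 0.20. HSPA5, the resident HSP70 chaperone, had 133, 120.0 and 123 FPKM against 139.5, 181 and 364 FPKM. DNAJB9 had 4.54, 3.57 and 4.03 FPKM against 4.85, 8.87 and 27.5 FPKM, and CRELD2 17.5, 18.1 and 15.6 FPKM against 26.2, 28.5 and 29.8 FPKM (adjusted p = 0.0531). SDF2L1, of the same compartment, was lower without overlap, at 73.1, 85.1 and 77.8 FPKM against 53.4, 43.8 and 53.9 FPKM (adjusted p = 0.0724).

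**Figure D3:**
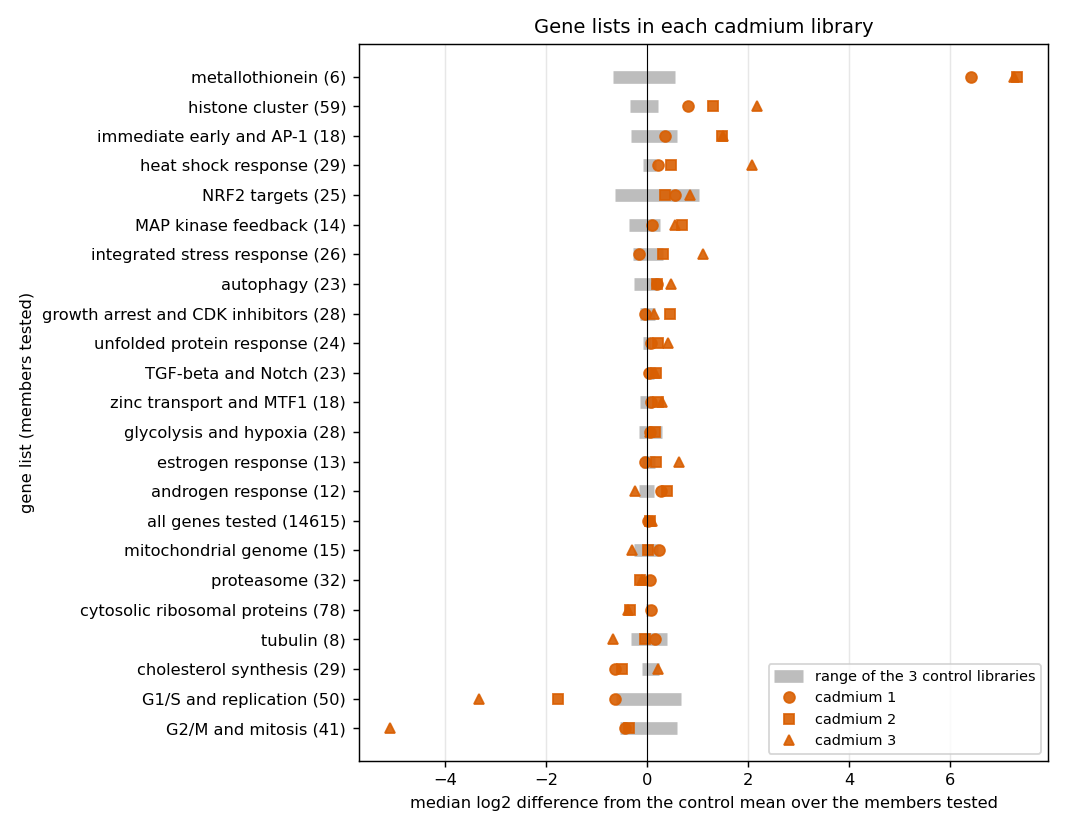
Median log2 difference from the control mean (x axis) over the tested members of each gene list (y axis, number of members in brackets) in cadmium library 1 (circle), 2 (square) and 3 (triangle). Grey bars span the medians of each control library against the other 2. Metallothionein medians lie between 6.41 and 7.32, G2/M medians at -0.44, -0.36 and -5.09, and the NRF2 medians lie inside the control range.

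Immediate early and AP-1 genes, which answer growth factor and stress kinases within minutes to hours, had a median log2 fold change of 1.01 over 18 members. None was called by limma and 1 by limma-voom, beside 557 of the 14615 genes. Higher at an unadjusted p under 0.05 were 10, beside 2126 of the 14615. Of these 10, 3 had a control mean under 0.5 FPKM and passed the filter only through cadmium, FOS and FOSB among them. Cadmium libraries 2 and 3 were alike, with medians of 1.49 and 1.5, and library 1 stood at 0.35. FOSB had 0.173, 0.281 and 0.218 FPKM in the controls and 0.901, 3.78 and 2.82 FPKM with cadmium (adjusted p = 0.0531), and FOS 0.392, 0.512 and 0.355 FPKM against 1.04, 4.72 and 6.48 FPKM (adjusted p = 0.0739). EGR1 overlapped because control library 3 was at 21.2 FPKM and cadmium library 1 at 11.3 FPKM. Its relative EGR4, which is outside this list, was called, with 0.0521, 0 and 0.0764 FPKM against 1.5, 7.09 and 7.47 FPKM (adjusted p = 0.0364). EGR4 too had a control mean under 0.5 FPKM and passed the filter only through cadmium. MYC had 10.1, 11.6 and 10.3 FPKM against 7.29, 13.4 and 5.47 FPKM. The 14 genes of MAP kinase feedback gave no call by limma or limma-voom and had a median of 0.47. Of the 14, 4 were higher and 1 lower at an unadjusted p under 0.05, beside 2126 and 1831 of the 14615 genes.

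Among 28 growth arrest and CDK inhibitor genes none was called (limma), and limma-voom called 2 lower, beside 309 of the 14615 genes. With an unadjusted p under 0.05 were 9 higher and 5 lower, beside 2126 and 1831 of the 14615. Of the 9, 2 had a control mean under 0.5 FPKM and passed the filter only through cadmium. The growth arrest genes GADD45G and GADD45B stood highest and without overlap, GADD45G at 1.94, 2.01 and 4.62 FPKM against 13, 44.7 and 119 FPKM (adjusted p = 0.0539) and GADD45B at 3.39, 3.83 and 3.54 FPKM against 6.64, 17.1 and 21.5 FPKM (adjusted p = 0.0644). CDKN1A, the gene of p21, had 7.48, 12.6 and 11.9 FPKM against 5.07, 25.3 and 25.4 FPKM, so that library 1 lay below and libraries 2 and 3 above the controls. CDKN2C, the gene of p18, was lower, at 8.11, 9.24 and 6.97 FPKM against 3.83, 0.933 and 0.752 FPKM (adjusted p = 0.0689).

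The genes of the G1/S transition and of DNA replication were lower with cadmium in all 50 members tested, with a median log2 fold change of -1.88. In 39 of 50 the groups did not overlap, beside 16.7% of all genes, and 45 had an unadjusted p under 0.05, beside 1831 of the 14615 genes lower. Of the 50, 1 was called lower, beside 0.869% of all genes. The median difference was -0.64 in cadmium library 1, -1.76 in library 2 and -3.33 in library 3, with single control libraries at -0.62 to 0.66 from the others. In 40 members library 1 already lay below every control, in library 2 all 50 did, and in library 3 49 did. Of all genes, 29.5%, 33.7% and 36.2% lay below every control in libraries 1, 2 and 3. Without cadmium library 3 the median was -1.21.

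CCND3, the gene of cyclin D3, was the member called, at 13.9, 14.2 and 18.6 FPKM in the controls and 8.09, 6.47 and 7.18 FPKM with cadmium (log2 fold change -1.08 ± 0.18 (SE, n = 3), adjusted p = 0.0441 by limma). Its cadmium values were close to each other, unlike those of the replication genes. RRM2, a ribonucleotide reductase subunit, had 30.8, 57.7 and 25 FPKM against 20.1, 3.95 and 0.103 FPKM (-3.80 ± 1.51, adjusted p = 0.167). The replicative helicase gene MCM2 had 30.6, 42.8 and 20.6 FPKM against 16.1, 4.39 and 1.09 FPKM (adjusted p = 0.111), and PCNA, the polymerase clamp, 126, 175 and 102 FPKM against 82.6, 35.9 and 18.1 FPKM (adjusted p = 0.101). E2F1 had 48.7, 67.6 and 53.5 FPKM against 28.3, 10.1 and 1.85 FPKM, and UHRF1, which keeps DNA methylation through replication, 27.1, 42.8 and 21 FPKM against 14.3, 3.23 and 1.22 FPKM. In each of these the cadmium libraries were below all controls, highest in library 1 and lowest in library 3.

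The genes of G2/M and mitosis behaved otherwise. All 41 tested were lower in the mean, with a median log2 fold change of -2.07, yet none was called or reached an unadjusted p under 0.05 (limma), and limma-voom called none. The median difference was -0.44 in library 1 and -0.36 in library 2, both within the -0.55 to 0.59 of the controls, and -5.09 in library 3. Library 3 lay below every control in 40 members, library 1 in 23 and library 2 in 18, beside 36.2%, 29.5% and 33.7% of all genes. Without cadmium library 3 the median was -0.44, so that most of the lower mean of this list came from that library. In 13 of the 41 all 3 cadmium libraries lay below every control, beside 16.7% of all genes.

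CCNB1, the gene of cyclin B1, had 41.1, 49.6 and 30.8 FPKM in the controls and 38.4, 37.2 and 0.309 FPKM with cadmium. CDC20, the activator of the anaphase-promoting complex, had 52.8, 51.3 and 44.2 FPKM against 55.8, 55.3 and 0.328 FPKM, and MKI67, a proliferation marker, 17.2, 30.9 and 9.92 FPKM against 12.7, 13 and 0.0238 FPKM. For these, cadmium libraries 1 and 2 lay within or just beside the control range. BIRC5, the gene of survivin, was among the 13 without overlap, with 14, 22.3 and 13.1 FPKM against 7.71, 4.95 and 0.0319 FPKM. BUB3 stayed at 33.6, 33.1 and 31.4 FPKM against 28.7, 24.5 and 36 FPKM. The 8 tubulin genes tested gave no call by limma or limma-voom. Of the 8, 1 was higher and 2 lower at an unadjusted p under 0.05, beside 2126 and 1831 of the 14615 genes. TUBA1B stood at 138, 199 and 96.6 FPKM against 86.6, 33.9 and 18.4 FPKM, and TUBB2A at 1.07, 1.4 and 1.47 FPKM against 3.37, 6.18 and 2.75 FPKM.

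**Figure D4:**
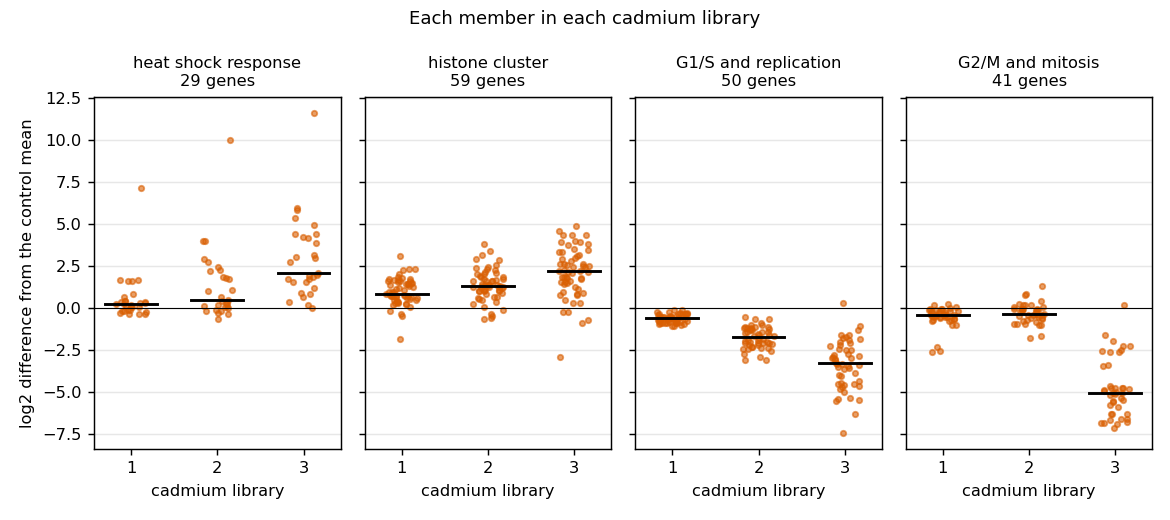
Log2 difference from the control mean (y axis) of each tested member of 4 gene lists in cadmium libraries 1, 2 and 3 (x axis), with black bars at the medians and points spread sideways for sight. G1/S medians are -0.64, -1.76 and -3.33, whereas G2/M medians are -0.44, -0.36 and -5.09.

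Histone genes of the chromosomal clusters, which encode the core and linker proteins of chromatin, were higher as a group. Of 59 tested members of 90 listed, 9 were called higher and none lower, against 1.27% of all genes called higher, and 41 were higher without overlap, against 18.9%. Of these members 9 had a control mean under 0.5 FPKM and passed the filter only through cadmium, among them 1 of the 9 called and 5 of the 41. Their median log2 fold change was 1.52, with 0.80, 1.30 and 2.16 in cadmium libraries 1, 2 and 3 and -0.35 to 0.21 for single controls. Most transcripts of these genes end in a stem-loop and have no poly-A tail, so a library made through poly-A capture sees the minor share that has one. Without cadmium library 1, 26 members were called higher, beside 1118 of all 14615 genes, and without library 3, 6, beside 76, but without library 2 or any 1 control library none was.

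HIST1H2AE was the steadiest, with 7.42, 6.6 and 6.78 FPKM in the controls and 28, 35.6 and 39.1 FPKM with cadmium (log2 fold change 2.28 ± 0.17 (SE, n = 3), adjusted p = 0.0083 by limma), and its call held in 12 of 16 alternatives. HIST2H3D had 1.05, 0.806 and 1.47 FPKM against 9.77, 15.9 and 34 FPKM (3.89 ± 0.46, adjusted p = 0.0364), and HIST2H2BF 1.4, 0.829 and 0.833 FPKM against 4.99, 9.52 and 21.8 FPKM (adjusted p = 0.0441). In these, cadmium library 3 was the highest and library 1 the lowest. HIST2H2BF overlaps AC243772.2 and FCGR1A, which stood at 7.68 and 3.15 FPKM in cadmium library 3, and their reads may be shared. HIST1H2BF, HIST1H3A and HIST2H2AA3 were called as well, from 0.147 to 2.17 FPKM in the controls to 1.2 to 18.2 FPKM with cadmium. Not all members were higher: HIST2H2AC had 6.51, 8.98 and 5.12 FPKM against 7.9, 4.66 and 3.9 FPKM, and HIST1H1B, a linker histone, 0.409, 1.81 and 0.267 FPKM against 1.05, 0.433 and 0.268 FPKM. SLBP, whose product binds the stem-loop, had 33.7, 38.5 and 29.1 FPKM against 27, 17.6 and 39.7 FPKM. Reads of near-identical histone genes can be shared between copies.

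Lipid synthesis genes had their own order of libraries. Of 29 cholesterol and fatty acid synthesis genes, 2 were called lower and none higher, against 0.869% of all genes called lower, and 10 were lower without overlap, beside 16.7%. The median log2 fold change was -0.30, and the median difference was -0.65 in cadmium library 1, -0.50 in library 2 and 0.21 in library 3. By this median library 3, the farthest from the controls over all genes, was the nearest.

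FASN, fatty acid synthase, fell from 476, 405 and 537 FPKM to 188, 122 and 219.7 FPKM (log2 fold change -1.46 ± 0.25 (SE, n = 3), adjusted p = 0.0474 by limma). CYP51A1, lanosterol demethylase, fell from 3.02, 3.06 and 3.31 FPKM to 0.967, 1.06 and 1.49 FPKM (-1.37 ± 0.22, adjusted p = 0.0441). EBP, a sterol isomerase, had 40.9, 42 and 44.4 FPKM against 22, 14.9 and 7.07 FPKM (adjusted p = 0.0695). PMVK, a kinase of the mevalonate pathway, stood on the higher side, at 43.8, 50.7 and 50.5 FPKM against 67.1, 70.2 and 69.7 FPKM (adjusted p = 0.0871).

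Of 12 androgen response genes, 1 was called higher and 1, FASN, lower, beside 1.27% and 0.869% of all genes. PIP, a secreted protein of apocrine breast cells and androgen target, rose from 129.5, 58 and 39.1 FPKM to 598, 319 and 515 FPKM (log2 fold change 2.79 ± 0.46 (SE, n = 3), adjusted p = 0.0441 by limma). FKBP5, another androgen target, was lower without overlap, at 6.56, 7.36 and 5.15 FPKM against 4.06, 2.54 and 2.69 FPKM (adjusted p = 0.0708). Of 13 estrogen response genes none was called by limma or limma-voom, and the median was 0.09. An unadjusted p under 0.05 was reached by 3 higher and 3 lower, beside 2126 and 1831 of the 14615 genes. Of 12 listed genes of ESRRB, its relatives and its targets, 2 passed the filter and neither was called by limma or limma-voom. Of these 2, 1 was higher at an unadjusted p under 0.05, beside the same 2126. ESRRA had 21.6, 23.3 and 31.2 FPKM against 23.1, 31.1 and 33.6 FPKM, and KLF4, a pluripotency factor, 5.29, 3.95 and 7.53 FPKM against 6.79, 13 and 14.9 FPKM. PRL and DPT were listed at 0 in all 6 libraries.

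The remaining lists held 1 called gene. Of 78 cytosolic ribosomal protein genes, RPS26 was called lower, from 109.7, 119.5 and 95.1 FPKM to 61.6, 43.7 and 47.5 FPKM (log2 fold change -1.09 ± 0.18 (SE, n = 3), adjusted p = 0.0451 by limma). This was 1 of 78, beside 0.869% of all genes, and the median was -0.22. In cadmium libraries 2 and 3, 67 of the 78 lay below every control, beside 33.7% and 36.2% of all genes. The medians there were -0.34 and -0.39, while library 1 had a median of 0.07 and single controls lay at -0.033 to 0.041. Without overlap 16 were lower, beside 16.7% of all genes. The 15 genes of the mitochondrial genome had a median of -0.02, with none called by limma or limma-voom and none at an unadjusted p under 0.05. The medians were -0.05 for 32 proteasome genes, 0.34 for 23 autophagy genes, 0.10 for 28 glycolysis and hypoxia genes and 0.17 for 23 TGF-beta and Notch genes, with no call by limma in any. At an unadjusted p under 0.05 these lists had 2, 7, 3 and 5 members higher and 3, 0, 7 and 3 lower, beside 2126 and 1831 of the 14615 genes. Limma-voom called 1 glycolysis gene lower, beside 309 of the 14615, and no other member. TGFB2 had the highest fold change of these lists, at 0.0901, 0.0276 and 0.0822 FPKM against 0.256, 4.29 and 2.29 FPKM (adjusted p = 0.0992). Like 1 of the glycolysis and hypoxia genes counted higher, TGFB2 had a control mean under 0.5 FPKM and passed the filter only through cadmium.

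Outside the lists, called rises among genes with a mean of at least 1 FPKM included several noncoding transcripts with few fragments in the controls. AC108134.2, a lincRNA on chromosome 16, had 0.124, 0.0633 and 0.566 FPKM in the controls and 8.97, 16.4 and 48.7 FPKM with cadmium (log2 fold change 6.07 ± 0.73 (SE, n = 3), adjusted p = 0.0364 by limma). The pseudogene XRCC6P1 had 0.0343, 0.0262 and 0.0335 FPKM against 1.8, 4.88 and 13.2 FPKM, and ZKSCAN7-AS1 0, 0.104 and 0.398 FPKM against 3.38, 7.22 and 14.8 FPKM. Each of these was lowest in cadmium library 1 and highest in library 3, and each had a control mean under 0.5 FPKM and passed the filter only through cadmium. ZKSCAN7-AS1 lies across ZNF35 and ZNF197 on the other strand, at 4.21 and 2.16 FPKM in control library 1. AL133370.1, an antisense transcript within RAD51B, was highest in library 1, at 1.73, 1.76 and 0.338 FPKM against 27.6, 11.4 and 14.6 FPKM.

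Noncoding genes (lincRNA, antisense or sense intronic) made up 17.8% of the genes called higher and 3.15% of those called lower, beside 11.5% of all genes tested. Transcripts of these classes took 0.709% to 0.843% of the fragments of each control library and 0.890%, 0.895% and 1.17% of cadmium libraries 1, 2 and 3, and a fragment was seen on 23167 to 24055 genes in the controls and on 23403, 28137 and 31147 genes with cadmium. The part of these shifts in the called rises was not tested. Over the 6 libraries the called rises had a median level of 4.06 FPKM and the called falls of 5.68 FPKM, beside 4.44 FPKM over all genes. In the controls alone these medians were 1.39, 9.10 and 4.26 FPKM, which the choice of genes by their direction partly fixes, and 10.3% of the rises had at most 3 fragments in every control library, beside 2.07% of all genes. GALR2, a galanin receptor gene, rose, with 0.749, 1.08 and 1.38 FPKM against 14.1, 17.3 and 12.9 FPKM (3.70 ± 0.25, adjusted p = 0.00552), called in 15 of 16 alternatives. SYT11, a synaptotagmin gene, had 1 fragment in the controls and 1.18, 4.64 and 2.52 FPKM with cadmium, a ratio of 1049 with a 95% counting interval of 188 to 41482. It passed the filter only through cadmium.

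The largest called falls among genes with a mean of at least 1 FPKM were mostly of protein-coding genes. PRRT1B fell from 7.43, 12.8 and 7.2 FPKM to 1.59, 0.525 and 0.696 FPKM (log2 fold change -3.24 ± 0.42 (SE, n = 3), adjusted p = 0.0364 by limma). MARVELD1 fell from 10.1, 9.64 and 10.2 FPKM to 1.95, 1.44 and 0.702 FPKM (-2.89 ± 0.34, adjusted p = 0.0364), and CDKN2AIPNL from 9.67, 10.3 and 10.4 FPKM to 3.63, 1.29 and 1.0 FPKM. DNMT3B, a de novo DNA methyltransferase, fell from 4.09, 3.99 and 2.84 FPKM to 1.35, 0.722 and 0.604 FPKM (-1.97 ± 0.33, adjusted p = 0.0449). UQCC3, an assembly factor of respiratory complex III, fell from 9.32, 7.97 and 10.0 FPKM to 3.07, 2.03 and 1.4 FPKM. The inositol kinase gene ITPKA fell to 0.447, 0.517 and 0.465 FPKM from 2.71, 3.62 and 2.31 FPKM. With ATF5, the genes HNRNPA1L2, ARHGEF19, MELTF-AS1, ZNF619, CNTNAP2, ALDH5A1, ADRA2C and AC019069.1 completed the 15 largest.

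Several differences as large as these were not called. The immunoglobulin constant region genes IGHE, IGHA1 and IGHA2 reached 37.6, 10.2 and 16.7 FPKM in cadmium library 3 and 1.22, 0.58 and 0.692 FPKM in library 1, with at most 0.0748 FPKM in a control (adjusted p = 0.0595, 0.0543 and 0.0665 by limma). The kallikrein pseudogene KLKP1 was at 0 in the controls and at 0.518, 1.85 and 14.1 FPKM with cadmium, at least 75.8-fold higher by the same bound of 3 fragments per library (adjusted p = 0.0704). The metallothionein pseudogene MT2P1 on chromosome 4 had 0, 0 and 0.331 FPKM against 0.901, 6.98 and 10.6 FPKM, and as a copy of MT2A it may share its reads. IGHE, IGHA1, IGHA2, KLKP1 and MT2P1 passed the filter only through cadmium. On the lower side were RRM2, RIBC2, at 12.6, 19.4 and 7.8 FPKM against 6.12, 1.11 and 0.201 FPKM, and TCF19, at 19.8, 32.9 and 18.8 FPKM against 16.2, 6.63 and 0.0344 FPKM. MIR7111 and a Y RNA listed as RF00019 also belonged to these, with at most 6 fragments in any library.

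The genes called with cadmium alone were then read in libraries not used for the calls: cells that received 10 μM DES (diethylstilbestrol, an antagonist of ESRRB in the study) 3 h before 24 h with 10 μM cadmium, against cells with DES for 24 h, 3 libraries each. The time with DES may differ between these groups and cannot be told apart from the metal. In this comparison 50 genes were called (0.345%), and 100 (0.689%) with the replicate number as a block. Of the 185 genes called higher with cadmium alone, 152 were tested here, 59.2% lay on the higher side with a median log2 fold change of 0.13, and 2 were called higher (4 with the block). Of the 127 called lower, 124 were tested and 33.9% lay on the lower side, with none called at an adjusted p under 0.05, and their median was 0.14. Without overlap, 19 of the 152 had the same and 8 the opposite direction, and 11 of the 124 the same and 8 the opposite. Over all 13050 genes tested in both comparisons, 49.4% had the same direction. Without overlap in either comparison, 331 of the 13050 had the same and 391 the opposite direction. Unlike the called genes, the 13050 include genes whose groups overlapped with cadmium alone, so these shares are not on the same footing. The shift of effects between the comparisons was not tested.

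Several metal genes, and the lincRNA AC108134.2, had large differences in both comparisons. MT1E had 10.0, 9.9 and 23 FPKM with DES and 1433, 97.2 and 444 FPKM with DES and cadmium (log2 fold change 4.90, adjusted p = 0.103 by limma, 0.0608 with the replicate block). MT1F had 8.42, 7.94 and 22.4 FPKM against 1922, 127 and 691 FPKM (5.58, adjusted p = 0.0811, and 0.049 with the block). SLC30A1 had 17.7, 22.6 and 32.4 FPKM against 235, 123 and 373 FPKM (3.22, adjusted p = 0.0442, and 0.0451 with the block), and AC108134.2 0.65, 0.357 and 0.565 FPKM against 21.6, 23.8 and 70.1 FPKM (5.76, adjusted p = 0.0119, and 0.0319 with the block). Of the genes called higher with cadmium alone, SLC30A1 and AC108134.2 were the 2 called here without the block. HSPA6 was already at 1262, 993 and 644 FPKM with DES alone and at 4099, 1468 and 2837 FPKM with DES and cadmium (1.47, adjusted p = 0.314). ATF5 had 16.5, 7.45 and 11.6 FPKM against 20.54, 13.9 and 13.2 FPKM, and HIST2H3D 23, 34.8 and 24.4 FPKM against 5.9, 92.1 and 12.2 FPKM, both with overlap.

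**Figure D5:**
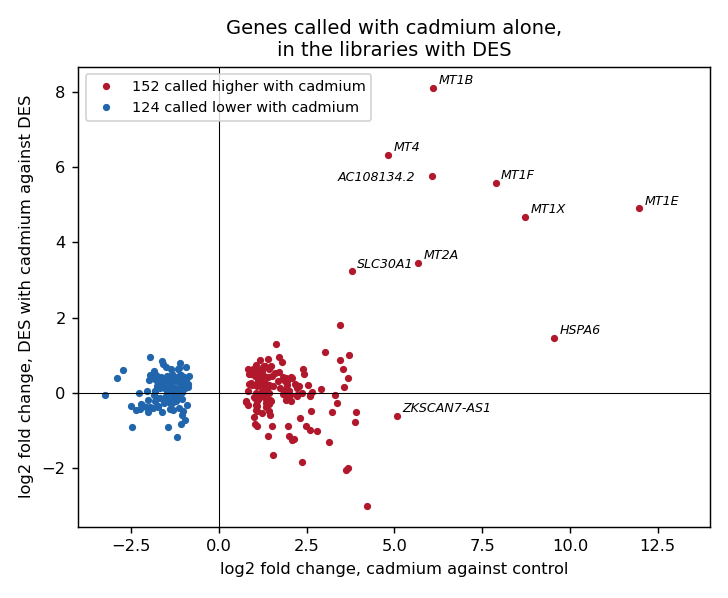
Log2 fold change of DES with cadmium against DES (y axis) over that of cadmium against control (x axis), for 152 genes called higher (red) and 124 called lower (blue) with cadmium alone. The metallothionein genes, SLC30A1 and AC108134.2 lie above 3 on both axes, while most other called genes lie near 0 on the y axis.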

How the data were processed

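Gene expression was measured by RNA-seq of poly-A RNA from MDA-MB-453 cells, and 6 of the 21 libraries (3 cadmium, 3 control) were compared. FPKM values were deposited by the authors for 58735 genes. The submitters' processing notes name HISAT2 2.0.5 and featureCounts 1.5.0-p3, the study's methods name DESeq2 for testing, and strandedness is described both ways. No column of per-sample values was left without a sample.

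Genes with a mean of at least 0.5 FPKM over the 6 libraries were kept (14615). The test was limma 3.58.1 (R 4.3.3) on log2(FPKM + 0.1), two-sided, with an intensity trend, and a gene was called at a Benjamini-Hochberg adjusted p under 0.05. FPKM times gene length gave whole multiples of 1 value per library (100% of values, within 0.1), from which fragments on genes were recovered, 15246217 to 28424805 per library. These served limma-voom, lower bounds (3 fragments per library) and 95% counting intervals, which cover counting error only. An exact permutation test of 3 against 3 could not go below 0.1 and was not used. Scripts were tested on simulated data. Counts over lists used pandas 2.3.3 on Python 3.11.15, and matplotlib 3.10.9 drew the plots.

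The members and gene lists were chosen with earlier results of these data known. Genes were named by rule: the 15 largest called rises and falls with a mean of at least 1 FPKM and groups that did not overlap, lead genes of the lists, the 2 highest and 2 lowest members of the other lists, the 5 largest rises and falls that were not called, and markers. Another 19 genes were chosen after their values were seen: CDC20, EGR1, HIST1H2AE, E2F1, CRELD2, OSGIN1, CCND3, HIST1H3H, HIST1H3J, UHRF1, NFE2L2, MKI67, HIST1H2BF, HIST2H2AA3, CYP51A1, GALR2, HIST1H1B, HIST1H3A and MT1H. Some genes, a few of which the rule names, are not reported here. Neighbours of the metallothionein cluster were taken within 100000 bases. Lists were described by counts and medians, without a test.

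Replicate numbers are shared between groups. Deviations of same-numbered cadmium and control libraries correlated at 0.041, 0.070 and 0.142, so these were not taken as pairs. For DES with cadmium and DES they correlated at 0.460, 0.127 and 0.293, each over 0.1. The main fit of that comparison did not use pairs, and the fit with the replicate block is given beside it. Alternatives were another pseudocount (1), other filters, median-ratio and total-fragment scaling, all 7 groups in 1 fit, library weights, the replicate block, limma-voom and leaving out each library. Promoters and coordinates are from RefSeq (GRCh38.p14).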

Additional observations from a re-analysis of the deposited data

Results flagged for a closer look

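For 5 named genes every library lay on opposite sides in the comparison with and without DES, and the difference between the comparisons was not tested. HNRNPA1L2 fell with cadmium alone (log2 fold change -2.72), whereas it stood at 1.19, 0.934 and 1.14 FPKM with DES and at 1.63, 2.0 and 1.53 FPKM with DES and cadmium (0.61). DNAJB9, a chaperone gene of the endoplasmic reticulum, was higher with cadmium alone (1.37, not called) and had 8.35, 14.5 and 10.3 FPKM with DES against 7.06, 6.58 and 6.99 FPKM with DES and cadmium (-0.64). HIST1H3A, a histone H3 gene with few fragments, rose with cadmium alone (2.36) and had 2.8, 1.56 and 4.99 FPKM with DES against 0.756, 0.702 and 0.67 FPKM with DES and cadmium (-1.84). The histone H3 genes HIST1H3H and HIST1H3J, which like HIST1H3A were chosen after their values were seen, rose with cadmium alone (2.0 and 2.07). HIST1H3H had 298, 345 and 192 FPKM with DES against 150.2, 116 and 105 FPKM with DES and cadmium (-1.14), and HIST1H3J 11.8, 9.23 and 12.0 FPKM against 3.93, 5.21 and 4.62 FPKM (-1.24). These were 3 of the 9 called histone genes. Among all genes called with cadmium alone, 8 of 152 rises and 8 of 124 falls had the opposite direction without overlap with DES. Of all 13050 genes tested in both comparisons, 391 had opposite directions without overlap in either. That total also includes genes whose groups overlapped with cadmium alone.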

How the results depend on the processing

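Of the values recomputed under the alternatives, 1278 fold changes of named genes stayed on the same side of the threshold with the same direction, 141 passed it only under the alternative, 301 no longer passed it and 10 reversed. The count of 312 called genes (185 higher, 127 lower) changed with most settings. The excess of rises was lost with median-ratio scaling (137 higher, 140 lower) and present with total-fragment scaling (154, 109). The count was 8 (8 higher, 0 lower) with no filter, 22 (19, 3) with the filter set over all 21 libraries, 1153 (583, 570) with all 7 groups in 1 fit, 8772 (4693, 4079) with library weights, and 557 (248, 309) with limma-voom on fragments, of which 283 were shared. The weights came from an estimate that stopped before convergence and ran from 0.195 for cadmium library 3 to 7.71 for control library 1. With 1 library left out the count ranged from 3 to 2164 (3 to 1118 higher, 0 to 1046 lower), lowest without cadmium library 2 and highest without cadmium library 1. The causes of these changes were not tested.

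With the replicate number as a block, 15 genes were called, 15 higher and 0 lower. The correlation of same-numbered libraries was under 0.1 for replicates 1 and 2, and cadmium library 1 correlated best with control library 2, so that the numbers are no evidence of pairing here. For DES with cadmium against DES, where every same-numbered correlation was over 0.1 although DES with cadmium library 2 correlated better with DES library 3 (0.261) than with library 2 (0.127), the block gave 100 calls in place of 50 and 4 shared with cadmium alone in place of 2, and pseudocount 1 gave 86.

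The fold change of HSPA8 reversed to -0.016 with median-ratio scaling and -0.10 with library weights, and ranged from -0.29 to 0.29 with 1 library left out. That of MYC reversed to 0.30 with weights. With 1 library left out, HSP90AB1 ranged from -0.54 to 0.10, ATF4 from -0.20 to 0.39, CDC20 from -3.34 to 0.17 and HIST1H1B from -0.69 to 0.50, and none of these genes was called. List medians moved by more than the spread of their libraries as follows. The metallothionein median was 6.41 with pseudocount 1, 5.25 with no filter, 7.88 with a mean of at least 2 FPKM and 5.89 with the filter over all libraries. With weights the median was 1.72 for immediate early, 0.16 for glycolysis, -0.18 for proteasome and 0.47 for androgen response genes. The glycolysis median was 0.0059 with median-ratio and 0.038 with total-fragment scaling, and the TGF-beta and Notch median 0.084 with median-ratio scaling. With 1 library left out the median ranged from 0.062 to 0.26 for zinc transport, 0.39 to 0.92 for NRF2 targets, -0.060 to 0.12 for glycolysis and 0.10 to 0.28 for TGF-beta and Notch. Depth limits the genes with few control fragments, whose change is given as a bound or an interval.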

Other observations

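Over the 13050 genes tested with and without DES, 391 did not overlap in either comparison and went in opposite directions, while 331 went in the same direction. This was not tested.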
